A study of Mus musculus with 20 samples.

Results

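KMT2D and KMT2C are the methyltransferases of a pair of related nuclear complexes, and 9 genes that encode subunits of these complexes were followed through RNA-seq libraries of embryonic mouse heart in which Kmt2d had been deleted. The genes were chosen by their symbols from the 33495 genes of the count table: the methyltransferases Mll2 (the older symbol of Kmt2d) and Mll3 (Kmt2c), the subunits Kdm6a, Ncoa6 and Paxip1 that mark this kind of complex, and the core subunits Wdr5, Ash2l, Rbbp5 and Dpy30. All 9 passed the filter on low counts in each of the 3 Cre lines, with 339 to 8807 reads a gene and library.

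KMT2C and KMT2D add methyl groups to lysine 4 of histone H3, mainly at enhancers, where the mark accompanies enhancers that are primed or in use. The core of WDR5, ASH2L, RBBP5 and DPY30 is shared with the other KMT2 and SETD1 methyltransferases and is needed for their full activity. KDM6A, also called UTX, removes methyl groups from lysine 27 of histone H3, a repressive mark. NCOA6 is a coactivator of nuclear receptors, and PAXIP1 (PTIP) is a protein with BRCT domains that also acts in DNA repair. Changes in human KMT2D or KDM6A cause Kabuki syndrome, in which heart defects are common.

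The series compared mutants and controls in 20 libraries of C57BL/6 embryos. Mesp1Cre acts in early cardiac mesoderm, and 4 mutant and 4 control whole hearts were labelled E9.0, although the protocol text gives E11.5. Mef2cAHF::Cre acts in the anterior heart field and its descendants, and 3 samples labelled mutant and 3 labelled control held the right ventricle and outflow tract at E11.5. Tnnt2::Cre acts in cardiomyocytes, and 3 mutant and 3 control whole hearts were taken at E11.5. Mutants were Cre; Kmt2d fl/fl; mTmG/+ and controls were Cre; Kmt2d fl/+; mTmG/+, so the controls also carried Cre, the mTmG reporter and 1 floxed allele. Cells outside each Cre lineage kept their Kmt2d alleles in the mutants as well. Whether a library held 1 heart or several was not given in the sources used here.

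For Mef2cAHF::Cre the sample labels and the column names of the table contradicted each other in 6 of 6 libraries, while a further header line of the table followed the labels in 6 of 6. The groups are called here by the sample labels, and the column names would turn the sign of every difference given for this line. Libraries held 21727258 to 45341870 reads assigned to genes. In Mesp1Cre the depth moved with genotype, from 25581534 to 28790705 in controls and from 21727258 to 24981332 in mutants. In Mef2cAHF::Cre it moved the other way by the labels. The depth was 25001020 to 27568922 in libraries labelled control and 28122321 to 37165163 in those labelled mutant. Levels between libraries are given as CPM, reads of a gene scaled to the TMM-adjusted size of its library, with the adjustment made within each Cre line unless stated. Summed over 4 Y-linked genes, unadjusted CPM was 152 to 279 in 10 libraries and at most 0.975 in the other 10, which are called male and female below. All 4 Mesp1Cre mutants were male, beside 2 of the 4 controls. In Mef2cAHF::Cre 1 library was male, a control, and in Tnnt2::Cre 1 mutant and 2 controls were. Cardiomyocyte markers were high in every group, with 6 genes summing to at least 12400 CPM in each library.

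Transcript levels per length were compared first, in controls, as FPKM, reads scaled to gene length and library size. Dpy30 stood above the other subunits in all 3 lines, with a mean of 57.2 FPKM in Mesp1Cre controls, 42.6 in those of Tnnt2::Cre and 39.5 in those of Mef2cAHF::Cre. Ncoa6 came next in Mesp1Cre (18.0 FPKM) and Mef2cAHF::Cre (20.7 FPKM), and in both lines every library lay above those of the gene that followed, Rbbp5. In Tnnt2::Cre controls Ncoa6 averaged 11.0 FPKM and could not be ordered against its neighbours Paxip1 (11.3) and Mll3 (10.5). Rbbp5, Paxip1, Kdm6a and Mll3 filled the middle, between 8.79 and 14.7 FPKM on average, and the ranges of neighbours in that order overlapped but for Rbbp5 above Paxip1 in Tnnt2::Cre. Mll2 averaged 9.34 FPKM in Mesp1Cre controls, 8.57 in those of Tnnt2::Cre and 9.98 in those of Mef2cAHF::Cre, overlapping Ash2l each time. Wdr5 was lowest, with 6.35, 7.77 and 7.54 FPKM in the same order, and only in Tnnt2::Cre did its libraries overlap those of Mll2.

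**Figure D1:**
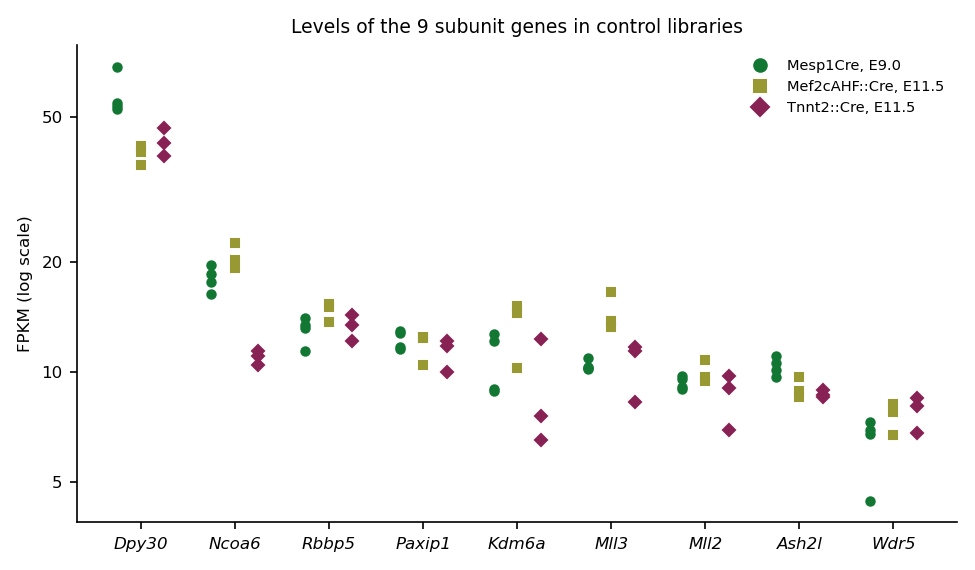
FPKM (log scale) of the 9 subunit genes in the 10 control libraries, a point a library, by Cre line and stage. Dpy30 lay above all others, Wdr5 had the lowest mean in each line, and Ncoa6 was near 11 FPKM in Tnnt2::Cre against 18.0 and 20.7 in the other lines.

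The first comparison asked whether deleting Kmt2d in Mesp1Cre hearts at E9.0 went with changes in its own transcript and in those of its partners. Of the 9 genes, Paxip1 fell and Mll3 rose at an adjusted p of 0.05 in edgeR's quasi-likelihood test, where 5.29% of all 15883 genes tested fell and 6.17% rose. On deposited FPKM values the split of all calls shifted from 980 higher and 841 lower to 1635 and 289 (limma, pseudocount 0.1), with the same 2 members called in the same directions. CPM did not overlap between mutants and controls for 4 of the 9, Mll2, Paxip1, Dpy30 and Mll3, against 17.7% of all genes. The median log2 fold change of the 9 was -0.06, and that of all genes was 0.00 (-0.0018).

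Mll2, the deleted gene, had 164, 156, 161 and 152 CPM in controls and 128, 144, 142 and 133 CPM in mutants. Every mutant library was below every control. The log2 fold change was -0.21 ± 0.07 (SE, n = 4 and 4), or 0.865 times, with an adjusted p of 0.0764 in edgeR, so the difference did not pass. It passed with DESeq2 (adjusted p = 0.0399) and in an edgeR fit of all 6 groups (adjusted p = 0.0318). On deposited FPKM values the groups overlapped, at 8.98 to 9.72 in controls and 8.53 to 9.31 in mutants. The log2 fold change of Mll2 was then -0.053 with a pseudocount of 0.1 (adjusted p = 0.733, limma) and -0.048 with 1 (adjusted p = 0.738, limma). The median of all genes was 0.15 and 0.11 on these values, and relative to it Mll2 was -0.20 and -0.15. The count covers 15:98664934-98701614 (minus strand, mm9), with a counted length of 16020 bases, where the annotation used here held 19805 exonic bases. It was not split by exon. Reads from any counted exon that the deletion leaves in place would add to it, which was not tested. In these bulk samples, fewer cells of a type and less RNA per cell cannot be told apart.

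Mll3, which encodes the other methyltransferase (5:24777612-25004601, minus strand), had 186, 187, 179 and 195 CPM in controls and 248, 213, 227 and 223 CPM in mutants. All 4 mutants were above all 4 controls. The log2 fold change was 0.29 ± 0.07 (SE, n = 4 and 4; adjusted p = 0.0199, edgeR). The call was lost without control 1 (adjusted p = 0.0569), control 2 (0.0528) or control 3 (0.0601), with the replicate number as a block (0.0517), and with sex as a covariate (log2 fold change 0.26; adjusted p = 0.118, edgeR).

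Paxip1 (5:28067207-28117879, minus strand) showed the largest difference among the 9 genes. Its level was 69.7, 62.6, 66.6 and 62.1 CPM in controls and 39.9, 50.1, 41.0 and 43.5 CPM in mutants. The highest mutant was below the lowest control by more than the SD of either group (3.56 in controls, 4.55 in mutants). Paxip1 fell by 0.58 on the log2 scale (SE 0.10, n = 4 and 4; adjusted p = 0.00312, edgeR), to 0.669 times the control level. It passed in every alternative run, with log2 fold changes from -0.64 to -0.39, including the fit with sex (adjusted p = 0.0199, edgeR). In a fit of the 6 male libraries alone, added after the values were seen, it was -0.60 ± 0.13 (SE, 4 mutants and 2 controls; adjusted p = 0.0355, edgeR), and Mll3 was 0.25 (adjusted p = 0.163, edgeR).

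Among the core subunits, Dpy30 (17:74698821-74715761, minus strand) had 39.0, 38.6, 48.2 and 39.5 CPM in controls and 31.3, 36.2, 35.6 and 37.5 CPM in mutants. The groups did not overlap, by a margin of about 1 CPM, and the log2 fold change of -0.23 ± 0.11 (SE, n = 4 and 4) had an adjusted p of 0.204 in edgeR. Wdr5 (2:27370677-27392055, plus strand), which binds the histone tail, ranged from 17.2 to 27.9 CPM in controls and from 14.6 to 24.0 CPM in mutants. Ash2l (8:26926663-26958166, minus strand), which stimulates the enzyme, ranged from 54.0 to 61.0 CPM in controls and from 46.6 to 60.8 CPM in mutants. Neither Wdr5 (log2 fold change -0.20 ± 0.18) nor Ash2l (-0.06 ± 0.10) passed, with adjusted p-values of 0.537 and 0.756 in edgeR. Rbbp5 (1:134373944-134401466, plus strand), a scaffold of the core, had 35.1 to 41.4 CPM in controls and 34.5 to 43.9 CPM in mutants, a log2 fold change of 0.01 ± 0.11. Its counts are less certain than the others: 20.8% of its exonic 100-base windows matched another place in the genome with at most 2 differences, against at most 0.915% for any other member. Ncoa6 (2:155216401-155299630, minus strand) overlapped as well, with 169 to 205 CPM in controls and 179 to 197 CPM in mutants (log2 fold change 0.02 ± 0.08).

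Sums of some other cell type markers moved with genotype in Mesp1Cre, though not every gene in them did. The sum of 4 endothelial genes was 263 to 294 CPM in controls and 366 to 410 CPM in mutants. Among these, Kdr was 94.3 to 110 and 157 to 183 CPM, and Pecam1 28.5 to 43.7 and 44.7 to 56.7 CPM. Cdh5 and Emcn overlapped. The sum of 6 erythroid genes was 5300 to 17400 CPM in controls and 1870 to 7330 CPM in mutants, that of 3 macrophage genes 6.51 to 15.8 and 1.68 to 2.71 CPM, and that of 3 genes of the left ventricle and atria 233 to 303 and 306 to 412 CPM. Of the macrophage genes only Lyz2 was apart, at 4.92 to 14.1 and 0.555 to 1.21 CPM. Csf1r overlapped, at 0.354 to 1.65 and 0.797 to 1.57 CPM, and so did Cx3cr1, at most 1.14 CPM. The sum of 3 genes of the second heart field and outflow tract was 79.2 to 92.4 and 47.5 to 82.0 CPM, and that of 3 epicardial genes 17.2 to 52.6 and 13.1 to 29.2 CPM. The 6 cardiomyocyte genes overlapped, at 19700 to 27100 and 22100 to 26500 CPM. The part of these shifts in the values of Mll3 and Paxip1 was not tested.

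**Figure D2:**
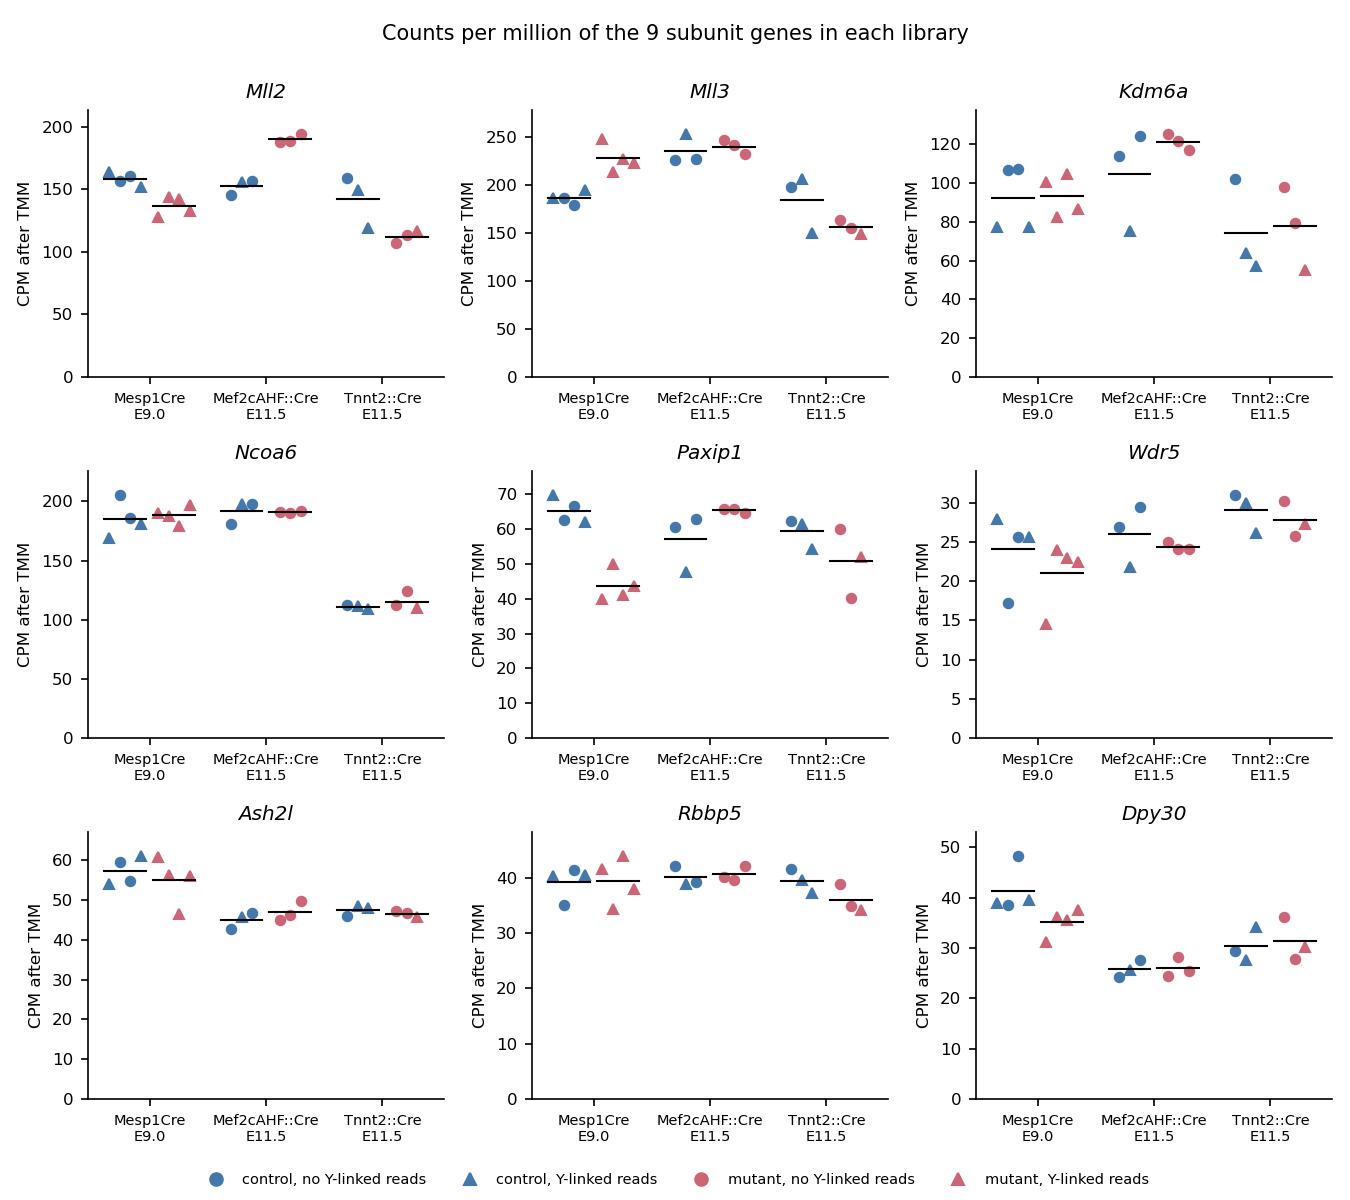
CPM after TMM scaling for the 9 subunit genes, a panel a gene and a point a library (bars are group means, blue controls, red mutants, triangles libraries with Y-linked reads), with Mef2cAHF::Cre groups named by the sample labels. In Mesp1Cre the mutants lay below the controls for Mll2, Paxip1 and Dpy30 and above them for Mll3.

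In Mef2cAHF::Cre, the right ventricle and outflow tract at E11.5, the question was the same for a deletion limited to anterior heart field derivatives. Mll2 alone of the 9 passed, where 2.85% of 16920 genes did (306 higher and 176 lower by the labels, against 111 and 180 on FPKM values, where no member passed). It had 146, 156 and 156 CPM in the libraries labelled control and 187, 189 and 194 CPM in those labelled mutant. The gene reported as deleted was therefore higher in every library labelled mutant than in any labelled control. By qRT-PCR, the study reported less Kmt2d transcript in E11.5 mutants of this line than in heterozygous controls. It reported a decrease in mutants of the other lines as well. Those values were relative to Actb, a measure unlike the read count over the gene used here. By immunostaining, the study also reported reduced KMT2D protein in Cre-positive cells of Mef2cAHF::Cre mutant hearts at an earlier stage. In the libraries here, the log2 fold change of Mll2 by the labels was 0.32 ± 0.06, and with the column names as genotypes it was -0.32 (SE, n = 3 and 3; adjusted p = 0.0359, edgeR). In edgeR the call was lost without the library of mutant 1 (adjusted p = 0.149), mutant 2 (0.152), mutant 3 (0.136), control 1 (0.0743) or control 3 (0.0605), and in the fit of all 6 groups (0.1). It held without control 2, the only male library, at an adjusted p of 0.0236 in edgeR.

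Paxip1 was the other gene whose groups did not overlap, 2 of 9 against 24.0% of all genes. It had 60.7, 47.6 and 62.9 CPM in the libraries labelled control and 65.8, 65.6 and 64.5 CPM in those labelled mutant. Control 2 was the lowest library, and the log2 fold change of 0.19 ± 0.10 by the labels (SE, n = 3 and 3) had an adjusted p of 0.365 in edgeR. Mll3 had 226, 253 and 226 CPM in the libraries labelled control and 246, 241 and 232 CPM in those labelled mutant. These overlapped, with a log2 fold change of 0.03 ± 0.07 by the labels. The core subunits and Ncoa6 had log2 fold changes from -0.09 (Wdr5) to 0.06 (Ash2l) by the labels. The summed erythroid genes were 7120 to 31600 CPM in the libraries labelled control and 24700 to 45900 CPM in those labelled mutant, while the endothelial sums overlapped at 305 to 371 and 311 to 336 CPM. The sum of the 3 genes of the left ventricle and atria did not overlap, at 51.9 to 56.9 CPM in the libraries labelled control and 60.6 to 65.7 CPM in those labelled mutant, and the cardiomyocyte sums were 12400 to 16300 and 16300 to 16800 CPM. The part of these shifts in the value of Mll2 was not tested.

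In Tnnt2::Cre hearts, where the deletion is in cardiomyocytes, none of the 9 passed in edgeR, where 0.293% of 17045 genes did, and 1 of the 9 had an unadjusted p below 0.05 against 2034 of all genes. DESeq2 called none of the 9 either. Mll2 had 159, 150 and 119 CPM in controls and 107, 113 and 116 CPM in mutants. It was the only member of 9 whose groups did not overlap, against 17.1% of all genes, and control 3 was just above the highest mutant. The log2 fold change was -0.35 ± 0.12 (SE, n = 3 and 3; adjusted p = 0.327, edgeR). Mll3 had 197, 206 and 150 CPM in controls and 163, 155 and 149 CPM in mutants. Control 3 was again low, within the range of the mutants, and the log2 fold change was -0.24 ± 0.13 (adjusted p = 0.497, edgeR), which became -0.37 without control 3 and -0.16 without control 2. Paxip1 had 62.2, 61.6 and 54.2 CPM in controls and 60.1, 40.2 and 52.1 CPM in mutants, with mutant 2 the lowest and a log2 fold change of -0.22 ± 0.15 (adjusted p = 0.590, edgeR). Without mutant 2 the value for Paxip1 was -0.080, and without mutant 1 it was -0.36. The other members ranged from -0.13 (Rbbp5) to 0.06 (Kdm6a). The summed erythroid genes were 100000 to 155000 CPM in controls and 18900 to 129000 CPM in mutants. The sum of the 3 genes of the second heart field and outflow tract did not overlap, at 57.5 to 68.7 CPM in controls and 41.7 to 53.6 CPM in mutants, nor did that of the left ventricle and atria, at 137 to 139 and 140 to 152 CPM. The part of these shifts in the values of the members was not tested.

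**Figure D3:**
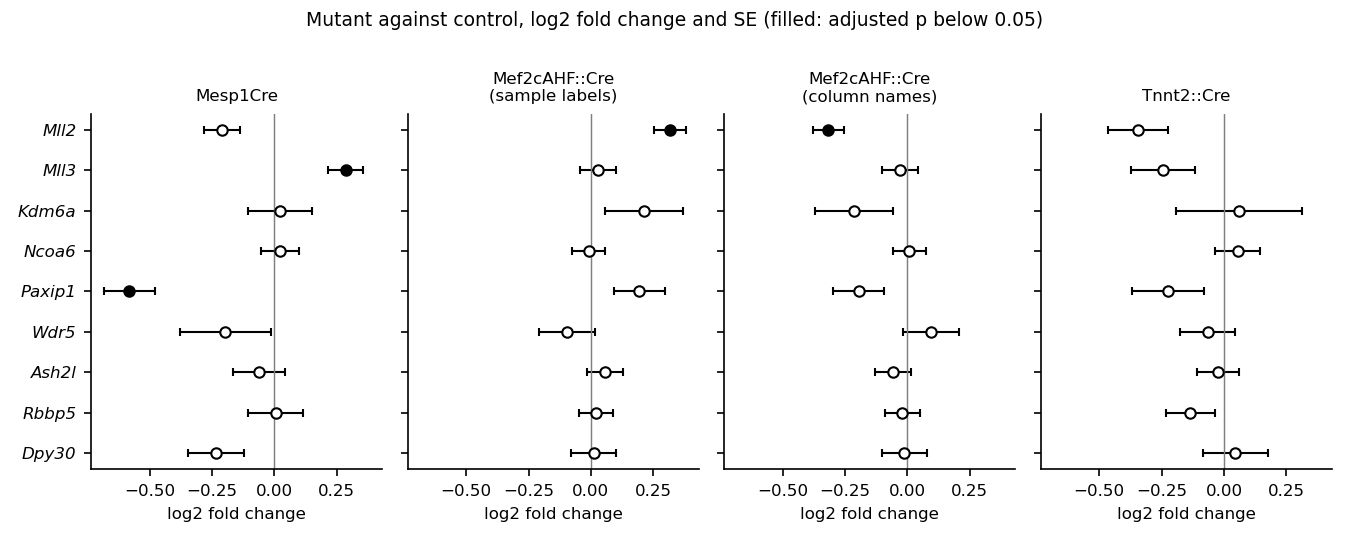
Log2 fold change of mutant against control with its SE for the 9 subunit genes in the 3 Cre lines, with both readings of the Mef2cAHF::Cre genotypes. Filled points have an adjusted p below 0.05: Mll3 and Paxip1 in Mesp1Cre and Mll2 in Mef2cAHF::Cre, whose sign turns from 0.32 to -0.32 with the reading.

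The genotype effects of the lines were then compared with each other in a fit of all 6 groups. Mll3 differed between Mesp1Cre and Tnnt2::Cre, with a difference in log2 fold change of 0.51 ± 0.12 (adjusted p = 0.030, edgeR), which was 1 of 9 members where 3.04% of 18391 genes passed. With sex in the fit this difference was 0.51 with an adjusted p of 0.0838 in edgeR. The effects on Mll2 (difference 0.12 ± 0.11) and on Paxip1 (-0.37 ± 0.17) did not pass between these lines, with adjusted p-values of 0.605 and 0.229 in edgeR. By the labels, Mesp1Cre and Mef2cAHF::Cre differed for Mll2 (-0.54 ± 0.11; adjusted p = 0.00311, edgeR) and Paxip1 (-0.79 ± 0.17; adjusted p = 0.00456, edgeR), 2 of 9 where 11.3% of all genes passed. By the column names the same differences were 0.09 (adjusted p = 0.753, edgeR) and -0.41 (adjusted p = 0.238, edgeR), none of the 9 passed and 1.63% of all genes did. Mef2cAHF::Cre and Tnnt2::Cre differed by the labels for Mll2 alone (0.66 ± 0.12; adjusted p = 0.00298, edgeR), where 3.19% of all genes passed. By the column names the difference for Mll2 was 0.03 ± 0.12, and 0.0% of all genes passed. The lines also differ in stage, tissue and sequencing group, which cannot be told apart from the Cre driver.

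The balance between the methyltransferase genes was read within each library, where the scaling between libraries does not enter. Mll2 made up 46.8%, 45.6%, 47.4% and 43.8% of the reads of Mll2 and Mll3 in Mesp1Cre controls and 34.1%, 40.3%, 38.5% and 37.4% in mutants. Mutants averaged 37.6% ± 2.62 and controls 45.9% ± 1.59 (SD, n = 4 and 4), and no library overlapped. The difference of -8.30 percentage points had p = 0.0286 in an exact two-sided permutation test, the smallest that 4 against 4 allows. It joined a lower Mll2 and a higher Mll3, each given above and each without overlap between groups. The shares therefore had to separate, and their p-value adds no support beyond those values. In Mef2cAHF::Cre the share was 39.3%, 38.1% and 40.8% in the libraries labelled control and 43.2%, 43.9% and 45.6% in those labelled mutant. The groups were apart there too, by 4.82 points by the labels or -4.82 with the column names as genotypes, with an exact permutation p of 0.1, the smallest that 3 against 3 allows. In Tnnt2::Cre the share was 44.6%, 42.1% and 44.2% in controls and 39.6%, 42.1% and 43.9% in mutants. These overlapped, and the difference of -1.74 points had an exact permutation p of 0.3. It was -0.62 points without mutant 1 and -2.75 without mutant 3.

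**Figure D4:**
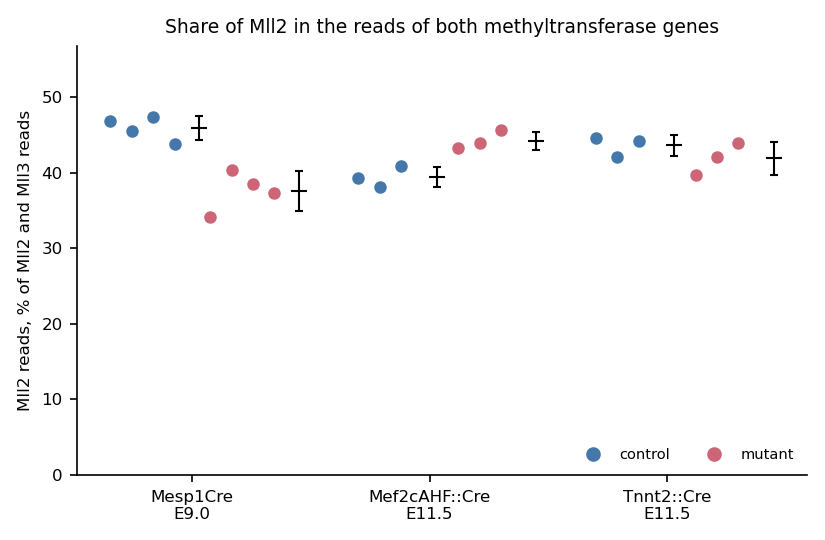
Reads of Mll2 as a percent of the reads of Mll2 and Mll3, a point a library, with the group mean and SD beside each group of points and the Mef2cAHF::Cre groups named by the sample labels. Mesp1Cre mutants, at 34.1% to 40.3%, lay below their controls at 43.8% to 47.4%, while the Tnnt2::Cre groups overlapped.

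Kdm6a (X:17739701-17857062, plus strand) differed with the sex of the embryo. The gene is known to escape X inactivation and has a Y-linked homolog, Uty, with little demethylase activity. With 1 scaling over the 20 libraries, Kdm6a ranged from 83.0 to 122 CPM in the 10 female libraries (mean 109) and from 57.7 to 102 CPM in the 10 male ones (mean 77.5). In a fit with the 6 groups and sex, Kdm6a was higher in females by 0.62 ± 0.07 on the log2 scale, or 1.54 times (SE; adjusted p = 2.09e-04, edgeR). The contrast rested on the 7 female and 6 male libraries of groups that held both sexes. It was the only 1 of the 9 members to pass, where 0.0435% of 18391 genes did, 8 genes in all, and 0.0217% were higher in females. In the 10 controls alone, the difference was 0.60 (adjusted p = 0.00695, edgeR).

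The near-identical stretch of the X and Y copies is shown, and how reads of it were assigned was not tested. In the female libraries Uty was at most 0.475 CPM, with 1 scaling over the 20 libraries. The pair of homologous coding exons with the highest identity is given, with the bases that differ in capitals, from NCBIM37 (mm9):
Kdm6a, chrX:17824101-17824235, plus strand: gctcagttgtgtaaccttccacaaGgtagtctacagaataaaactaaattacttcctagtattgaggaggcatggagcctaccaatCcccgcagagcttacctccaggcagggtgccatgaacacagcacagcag
Uty, chrY:505566-505700, minus strand: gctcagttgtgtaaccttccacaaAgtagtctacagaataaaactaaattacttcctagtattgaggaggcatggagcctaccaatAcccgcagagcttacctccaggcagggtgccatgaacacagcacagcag
The exons are 98.5% identical over 135 bases and differ by G25A and C87A, counted from the 5′ end of the Kdm6a exon. Over the whole gene, 0.705% of 100-base windows of Kdm6a exons matched another place with at most 2 differences, all on chromosome Y.

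Because sex and genotype were not balanced, Kdm6a was given within each sex. In Mesp1Cre the male controls had 77.4 and 77.0 CPM and the 4 mutants, all male, had 100, 82.3, 104 and 86.5 CPM. The female controls had 106 and 107 CPM. Every mutant was thus above both male controls and below both female ones. The log2 fold change was 0.02 ± 0.13 over all libraries, 0.27 ± 0.12 with sex in the fit (adjusted p = 0.195, edgeR) and 0.27 ± 0.13 in the 6 male libraries (adjusted p = 0.256, edgeR), which did not pass. In Mef2cAHF::Cre the only male library, control 2, had 75.3 CPM, beside 114 and 124 CPM in the female libraries labelled control and 125, 121 and 117 CPM in those labelled mutant. The log2 fold change by the labels was 0.21 ± 0.16, and 0.03 ± 0.07 with sex in the fit. In Tnnt2::Cre the female control had 102 CPM and the female mutants 98.1 and 79.6 CPM, while the male controls had 64.0 and 57.0 CPM and the male mutant 55.0 CPM. In that line the log2 fold change was 0.06 over all libraries and -0.17 ± 0.13 with sex in the fit (adjusted p = 0.736, edgeR).

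**Figure D5:**
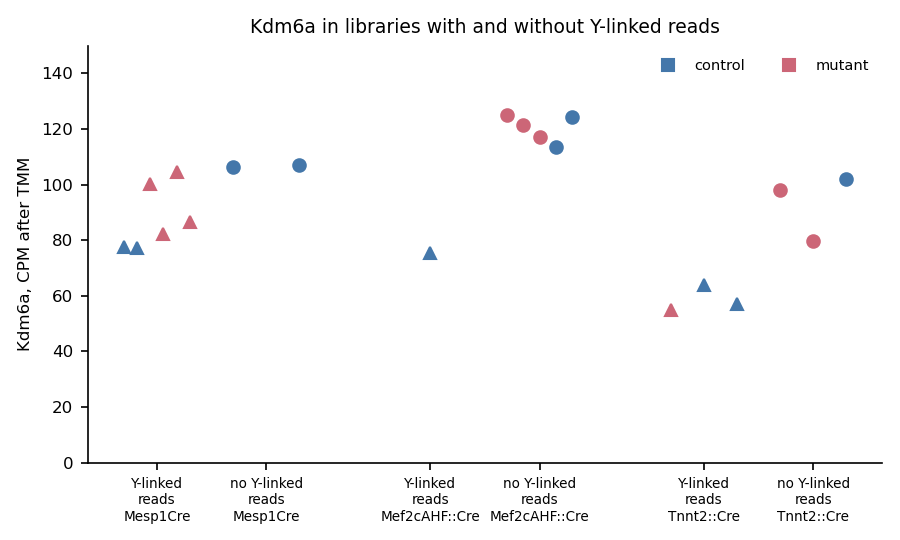
Kdm6a CPM after TMM in libraries with and without Y-linked reads, by Cre line (blue controls, red mutants, Mef2cAHF::Cre by the sample labels), a point a library. Within Mef2cAHF::Cre and Tnnt2::Cre the female libraries lay above the male ones, and in Mesp1Cre the 4 male mutants lay between the male controls near 77 CPM and the female controls at 106 and 107 CPM.

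Kdm5c, an X-linked gene that removes methyl groups from lysine 4 of histone H3 and so opposes KMT2 enzymes, also passed the comparison of the sexes. Over all libraries it was 82.7 to 96.7 CPM in females and 63.0 to 97.2 CPM in males, a log2 difference of 0.38 ± 0.06 (adjusted p = 0.0141, edgeR), which did not pass in the controls alone (0.35; adjusted p = 0.457, edgeR). Of the 8 genes that passed, 4 were the Y-linked genes used to assign sex, among them Uty and Kdm5d, the Y-linked homologs of Kdm6a and Kdm5c. The remaining ones were Eif2s3x and AL669964.8, both X-linked.

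Stage was read from control whole hearts, Tnnt2::Cre at E11.5 against Mesp1Cre at E9.0. Of the 9 members, 2 passed, both lower at E11.5, where 39.6% of 18391 genes passed in either direction and 17.9% were lower. With 1 scaling over all libraries, Ncoa6 had 168, 202, 183 and 178 CPM at E9.0 and 118, 116 and 116 CPM at E11.5. The groups were far apart, with a log2 difference of -0.64 ± 0.07 (SE, n = 4 and 3; adjusted p = 6.02e-07, edgeR). The right ventricle and outflow tract of Mef2cAHF::Cre controls, also at E11.5, had 176, 193 and 193 CPM of Ncoa6, within the range of the E9.0 hearts. Dpy30 had 38.7, 38.0, 47.3 and 39.0 CPM at E9.0 and 30.8, 29.0 and 36.3 CPM at E11.5, a log2 difference of -0.35 ± 0.11 (adjusted p = 0.0197, edgeR). In the right ventricle and outflow tract it had 23.6, 25.0 and 27 CPM, a level that was not tested against the whole hearts, and on FPKM values it overlapped those of E11.5, at 36.7 to 41.5 against 39.0 to 46.6. The other members had log2 differences from -0.21 (Kdm6a) to 0.36 (Wdr5; adjusted p = 0.0830, edgeR), and the closest of these to the threshold after Wdr5 was Ash2l (-0.18; adjusted p = 0.0970, edgeR). Stage, Cre line and sequencing group cannot be told apart here. The summed erythroid genes were 5300 to 17400 CPM at E9.0 and 100000 to 155000 CPM at E11.5, and their part was not tested.

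The members were set beside 28 other genes of lysine 4 and lysine 27 methylation and enhancer activation, counted under 29 gene identifiers because Setd1b had a pair of them. In Mesp1Cre, 5 of 29 were higher in mutants and 3 of 29 lower, where 6.17% of all genes tested were higher and 5.29% lower. The 3 largest of the changes that passed were in enzymes that remove methyl groups from these lysines. Kdm5b, a lysine 4 demethylase, had 129, 127, 141 and 109 CPM in controls and 293, 219, 214 and 224 CPM in mutants, a rise of 0.91 ± 0.11 on the log2 scale (n = 4 and 4; adjusted p = 2.58e-04, edgeR). Its relative Kdm5a had 186, 173, 180 and 177 CPM in controls and 328, 243, 269 and 275 CPM in mutants, a rise of 0.64 ± 0.09 (adjusted p = 6.21e-04, edgeR). Kdm6b, a lysine 27 demethylase related to Kdm6a, had 73.6, 83.8, 76.1 and 71.5 CPM in controls and 127, 115, 111 and 119 CPM in mutants, a rise of 0.63 ± 0.08 (adjusted p = 4.18e-04, edgeR). None of the 3 overlapped between groups, and each passed with sex in the fit (log2 fold changes 1.00, 0.62 and 0.70). The other demethylase genes of the list did not pass. Kdm5c had a log2 fold change of 0.10 (adjusted p = 0.609), Kdm1a 0.14 (0.219), Kdm1b -0.29 (0.50) and the Y-linked Kdm5d 1.11 (0.510) and Uty 1.38 (0.398) in edgeR. The values of these Y-linked genes mix sex with genotype, since all 4 mutants and 2 of the 4 controls were male. Kdm5d was 56.3 and 54.5 CPM in male controls and 52.4 to 65.3 CPM in mutants. Uty was 50.7 and 52.1 CPM in male controls and 56.8 to 76.8 CPM in mutants.

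The other 5 of these genes changed less. Ep300, which acetylates histones at enhancers, rose by 0.24 (adjusted p = 0.0466, edgeR) and Chd7, a chromatin remodeller, by 0.26 (adjusted p = 0.0497, edgeR). Hcfc1 (-0.29; adjusted p = 0.0249, edgeR) and Wdr82 (-0.36; adjusted p = 0.0272, edgeR), subunits of other KMT2 and SETD1 complexes, and Smarca4 (-0.33; adjusted p = 0.0230, edgeR), the ATPase of BAF remodelling complexes, fell. None of these 5 passed with sex in the fit. The count of 8 became 3 without control 3, mutant 1 or mutant 3, 4 without control 4 and 5 without control 2, and Kdm5a, Kdm5b and Kdm6b were among the calls each time. The other lysine 4 methyltransferases, Mll1, Wbp7 (Kmt2b), Setd1a and Setd1b, did not pass in any line in edgeR, with log2 fold changes from -0.20 to 0.19 in Mesp1Cre, from -0.50 to 0.03 in Tnnt2::Cre and from -0.03 to 0.15 by the labels in Mef2cAHF::Cre. In Mef2cAHF::Cre none of the 27 gene identifiers of the list that were tested passed in edgeR, with 2 at an unadjusted p below 0.05 (3037 of all genes), and DESeq2 called 1, Kdm5b, lower in the libraries labelled mutant. In Tnnt2::Cre none of 29 passed in edgeR or DESeq2, and 1 had an unadjusted p below 0.05 (2034 of all 17045 genes in edgeR). The effects of Mesp1Cre and Tnnt2::Cre differed for 2 of 29, where 3.04% of 18391 genes passed. These were Kdm5a (0.56 ± 0.13) and Ep300 (0.41 ± 0.10), both with an adjusted p of 0.0282 in edgeR. Neither passed with sex in the fit (adjusted p = 0.0916 and 0.0787, edgeR).

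Finally, the members were compared with each other and with other genes over the 20 libraries, as log2 CPM minus the mean of the Cre line. Pearson's r ran from -0.62 to 0.66 over the 36 pairs of members, with a median of 0.12. The highest was Mll2 with Paxip1 (0.66) and the lowest Mll3 with Dpy30 (-0.62). The points share libraries and depth, and the differences between mutants and controls enter these values. With the mean of each group taken off instead, the range was -0.57 to 0.60 and the median 0.08, Mll2 with Paxip1 was at 0.24, and the highest pair was Paxip1 with Wdr5. Among 9178 other genes, the 5 most like Mll2 included Secisbp2l (r = 0.85), Ppp1r1a, a phosphatase inhibitor (0.84), Srpk3, a kinase of muscle (0.84), and Pcp4l1 (0.83). None of the 5 was among the first 5 when group means were taken off, which included Fubp1 (0.80), Myc (0.79), Zzef1 (0.76) and Pan3 (0.76).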

How the data were processed

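RNA-seq of 20 libraries was analysed from 1 deposited table of 33495 genes. Per the submitters' processing notes and the study's methods, the authors aligned reads to mm9 with TopHat2 2.0.8b, assigned them to genes with featureCounts and computed the deposited counts and FPKM values with USeq 8.6.4. Per the labels, cDNA was amplified from total RNA before library preparation, and the libraries of each Cre line were sequenced as a group of their own. The strand setting was not given in the sources used here. The deposited FPKM values equalled counts divided by gene length and library total. Another 20 columns of variance-corrected counts were not used. Labels and protocol text differ on kits and instruments, which were not used as batches. Mesp1Cre libraries also carried the number codes 747, 748 and 751, each shared by mutants and controls. These codes were fitted as a block in an alternative run.

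Counts were tested with edgeR 4.0.16 (R 4.3.3): filterByExpr, TMM, a quasi-likelihood F test in each Cre line, and Benjamini-Hochberg adjustment over all genes tested. SE was the log2 fold change divided by the square root of F. A fit of 6 groups gave differences between lines, stages and sexes. Its CPM values and the marker sums were scaled over all 20 libraries. Libraries with at least 10 CPM over Ddx3y, Eif2s3y, Kdm5d and Uty were called male. Alternatives used limma 3.58.1 on log2(FPKM + 0.1) and log2(FPKM + 1), DESeq2 1.42.0, other filters and left-out libraries. Copies of exons were sought in NCBIM37 with minimap2 2.31-r1302, and annotation was GENCODE for that build. The edgeR step was tested on simulated data. The labels do not say whether samples came from separate litters, so p-values measure the spread between these samples only. The members, the list of related genes and the markers were chosen with earlier results of these data known, and all members of each list were counted. The genes to name were all 9 members, the called genes and the methyltransferases of the related list, and the 5 genes most like Mll2, of which some are not reported here. Pearson's r used genes tested in all lines whose mean log2 CPM reached 3.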

Additional observations from a re-analysis of the deposited data

Results flagged for a closer look

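Of 18 comparisons of a single Mesp1Cre library with the other 3 of its group, 2 stood far from the rest, where chance gives about 1 in 20. Dpy30 was 48.2 CPM in control 3, against 38.6 to 39.5 CPM in the other controls. Wdr5 was 14.6 CPM in mutant 1, against 22.5 to 24.0 CPM in the other mutants.

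Genotype effects that differed between lines were Mll3 between Mesp1Cre and Tnnt2::Cre (difference in log2 fold change 0.514), Mll2 between Mesp1Cre and Mef2cAHF::Cre (-0.544), Paxip1 between Mesp1Cre and Mef2cAHF::Cre (-0.794), and Mll2 between Mef2cAHF::Cre and Tnnt2::Cre (0.663). The last 3 rest on the sample labels of Mef2cAHF::Cre, and none of them passed with the column names as genotypes.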

How the results depend on the processing

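In Mesp1Cre, Paxip1 was called in every alternative run. The number of members called was 1 with the replicate block, 1 with sex as a covariate, 1 in the 6 male libraries (chosen after seeing the data) and 1 to 2 with single libraries left out, Mll3 being the call lost. Mll2 passed with DESeq2 (-0.21) and in the 6-group fit (-0.23). Related genes called numbered 3 with sex and 3 to 9 with single libraries left out. In Mef2cAHF::Cre no member (0) was called with the replicate block (Mll2 0.32), on FPKM + 0.1 (0.18) or FPKM + 1 (0.17), or in the 6-group fit (0.32). With single libraries left out 0 to 1 were called, at 0.28 to 0.34 for Mll2. Related genes called were 3 (Kdm5d, Uty and Kdm5b, all lower) with all genes of at least 1 count and 1 with DESeq2. Kdm5d and Uty are Y-linked, and the only male library of this line was control 2. With 1 scaling over the 20 libraries, they had 52.2 and 45.3 CPM in control 2. In the female libraries of the line they had at most 0.054 and 0.284 CPM. In Tnnt2::Cre the related genes called were 0 to 1 with single libraries left out, the 1 being Setd1b without mutant 1. With sex, 0 members differed between Mesp1Cre and Tnnt2::Cre, and in the Mesp1Cre controls alone 0 differed by sex. With column names as genotypes, 0 members differed between lines in either comparison with Mef2cAHF::Cre, Mll2 differing by 0.088 from Mesp1Cre. The causes were not tested. Over all genes, calls in Mesp1Cre numbered 1821, against 899 with sex and 3593 in the 6-group fit. In Mef2cAHF::Cre they numbered 482, against 1311 with all genes of at least 1 count, 1078 with DESeq2, 291 and 253 on FPKM values and 129 in the 6-group fit. In Tnnt2::Cre they numbered 50, against 120, 366, 22 and 19, and 82 in the same order, 28 with the replicate block and 17 with sex.

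The column names also turned log2 fold changes to -0.32 (Mll2), -0.030 (Mll3), -0.21 (Kdm6a), 0.0082 (Ncoa6), -0.19 (Paxip1), 0.095 (Wdr5), -0.059 (Ash2l), -0.020 (Rbbp5) and -0.012 (Dpy30), and the Mll2 share to -4.82 points. The other reversals were in values that passed in no setting. FPKM values, with pseudocounts of 0.1 and 1, shifted the median of all genes by 0.15 and 0.11 in Mesp1Cre, -0.13 and -0.10 in Mef2cAHF::Cre, and 0.11 and 0.08 in Tnnt2::Cre. They gave Ash2l 0.091 and 0.084 in Mesp1Cre and 0.090 and 0.082 in Tnnt2::Cre, Wdr5 0.050 and 0.044 in Tnnt2::Cre, and in Mef2cAHF::Cre Mll3 -0.10 and -0.096, Ash2l -0.076 and -0.069, Rbbp5 -0.11 and -0.11, and Dpy30 -0.12 and -0.12. Relative to that median, Mll2 was -0.20, Mll3 0.29 and Paxip1 -0.57 in Mesp1Cre with 0.1. Sex gave Rbbp5 -0.034 in Mesp1Cre and -0.0021 in Mef2cAHF::Cre, Ncoa6 0.015 in Mef2cAHF::Cre and Kdm6a -0.17 in Tnnt2::Cre. Rbbp5 in Mesp1Cre was -0.013 in the 6-group fit and -0.037 in males. Leaving out single libraries moved values across 0 in Mesp1Cre for Kdm6a (-0.056 to 0.10), Ncoa6 (-0.019 to 0.0745), Ash2l (-0.10 to 0.018) and Rbbp5 (-0.046 to 0.078), in Mef2cAHF::Cre for Ncoa6 (-0.051 to 0.018), Wdr5 (-0.20 to 0.0057), Rbbp5 (-0.0071 to 0.057) and Dpy30 (-0.050 to 0.065), and in Tnnt2::Cre for Kdm6a (-0.15 to 0.36), Ncoa6 (-0.0001 to 0.089) and Dpy30 (-0.071 to 0.14). Same-numbered mutants and controls correlated at -0.048 to 0.171 after group means were taken off, which cannot exclude pairing in groups this small. In Mesp1Cre, same-numbered libraries also shared their number code. The numbers were not taken as pairs in the main fits. With the replicate number as a block, Mll3 in Mesp1Cre (adjusted p = 0.0517, edgeR) and Mll2 in Mef2cAHF::Cre (adjusted p = 0.0584, edgeR) did not pass.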
